A study of Mus musculus with 2 samples.

Results

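The cytochromes P450 were described in intestinal stem cells of mice that lack the circular RNA circPan3 and of mice that carry it. A gene counted as a member when a row of the expression table had exactly 1 gene symbol in the platform annotation and that symbol began with Cyp and a digit. This gave 96 rows and 95 genes among 30145 genes with 1 symbol. The brighter row stood for Cyp11a1, the only member with a second row. RefSeq lists 89 of the 95 as protein-coding and 5 as pseudogenes. The tested cells were Lgr5-GFP-positive cells of circPan3-/- mice, and the cells they were set against were Lgr5-GFP-positive cells of circPan3+/+ mice. Both genotypes carried the Lgr5GFP-CreERT2 allele, in which GFP and an inducible Cre recombinase are made under the control of Lgr5, and the mice were 8 weeks old. The cells were sorted from small intestine, and total RNA was hybridised to Affymetrix Clariom D mouse arrays, 1 array for each genotype. The sources used here do not say whether an array held RNA of 1 mouse or of several.

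Cytochromes P450 are haem enzymes that insert an atom of molecular oxygen into a substrate, with electrons from a reductase. Families Cyp1, Cyp2 and Cyp3 mostly oxidise drugs and other foreign compounds. The Cyp2j and Cyp4 enzymes act on fatty acids and eicosanoids, and the remaining families make or break down sterols, bile acids, steroid hormones and the vitamins A and D. In the intestine, Cyp3a and Cyp2c enzymes of absorptive enterocytes form a first barrier to ingested compounds, and nuclear receptors that sense such compounds control many of them.

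No genotype was replicated, so the values carry neither errors nor p-values and compare these arrays only. Signals are deposited RMA values in log2 units, and differences are circPan3-/- minus circPan3+/+. A difference of 1 or more in size is 2-fold. The 95th percentile of 5222 negative control rows was taken as a limit on each array, 5.56 for circPan3-/- and 5.06 for circPan3+/+. Where the dimmer value lay under its limit, a fold is given as "at least", from the brighter value to that limit. The median difference over all genes with 1 symbol was 0.21. On the circPan3-/- array 4.20% of rows had a value that also stood in another row, against 69.1% on the circPan3+/+ array. Among the P450 genes this held for 0 of 95 circPan3-/- values and for 64 of 95 circPan3+/+ values. The columns may therefore not have been summarised in the same way, which would touch every difference given here and was not tested. RNA came from bulk cells, so fewer cells of a type and less RNA per cell cannot be told apart. No row was matched to circPan3 itself, so the deletion was not checked here. The labelled cell type was checked with 6 stem cell markers: Lgr5 had a signal of 7.02 in circPan3-/- cells and 10.91 in circPan3+/+ cells, and Olfm4 had 10.28 and 11.53. Markers of the same list went the other way: Slc12a2 had 8.39 in circPan3-/- cells and 5.47 in circPan3+/+ cells, and Axin2 had 5.97 and 4.25, or at least 1.88-fold higher. Smoc2 and Ascl2 lay under the limits on both arrays. Enterocyte markers were bright on both arrays, 10 of 12 above both limits.

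Most P450 genes, like most genes on these arrays, gave no signal above the limits. Of the 95, 4 were above the limit on both arrays, 2 only in circPan3-/- cells and 4 only in circPan3+/+ cells, and 85 were under it on both. These 85 are 89.5% of the members, against 79.4% of all genes with 1 symbol and 79.2% of the protein-coding ones. In circPan3-/- cells, 8 of the 95 were higher by 2-fold or more and 7 were lower by as much. The 8 are 8.42% of the members, against 5.98% of all genes with 1 symbol and 7.49% of the 19044 protein-coding ones. The 7 are 7.37% of the members, against 2.74% of all genes and 2.17% of protein-coding ones. With values under the limits replaced by the limits, 1 member stayed at least 2-fold higher, Cyp4f40, against 2.04% of all genes, and 1 at least 2-fold lower, Cyp3a13, against 0.826%. The median difference of the members was 0.34, close to the 0.28 of protein-coding genes. After centring on the median of all genes, 7 members were higher and 7 lower, against 3.18% and 4.09% of all genes. After loess, 6 were higher and 7 lower, against 2.4% and 4.53%, and after quantile normalization 6 and 7, against 2.64% and 4.4%. At 1.5-fold, 26 were higher and 10 lower, against 20.6% and 6.53% of all genes, and with bounds 3 and 2, against 7.01% and 1.9%. The drug and xenobiotic group, set by gene family, held all 7 lower members, 14.6% of its 48 genes. The 7 include Cyp2c55 and Cyp2c66, which also act on arachidonic acid. Of the 47 members outside that group, 3 (6.38%) were higher by 2-fold or more (2 after each scaling) and 0 lower. The shares among all genes with 1 symbol were 5.98% and 2.74%.

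**Figure D1:**
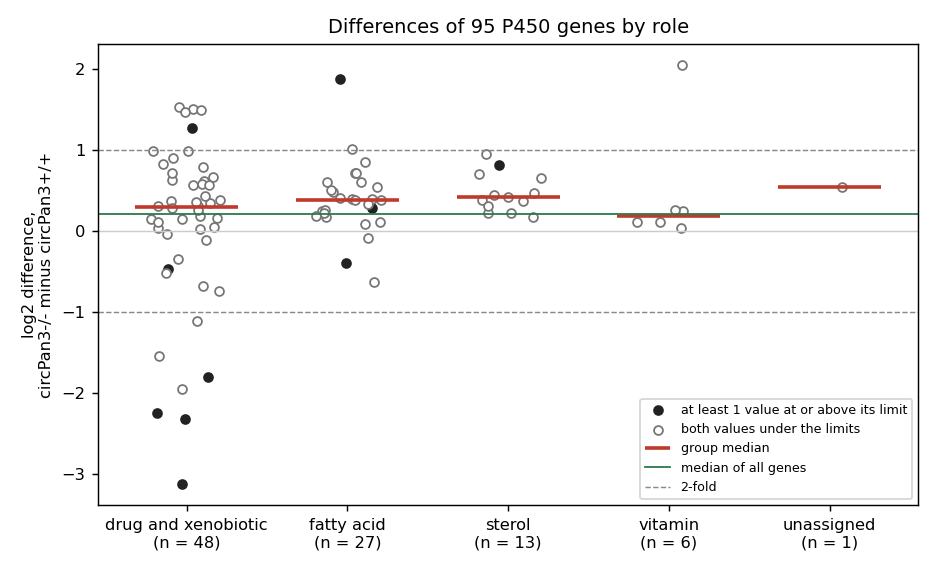
Log2 difference (circPan3-/- minus circPan3+/+) of each of the 95 P450 genes, by role, with 1 array per genotype. Filled points have at least 1 value at or above its control limit, open points have none, red bars are group medians, the green line is the median of all genes and dashed lines mark 2-fold. The 7 genes under the lower dashed line are all in the drug and xenobiotic group, which was set by gene family.

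**Figure D2:**
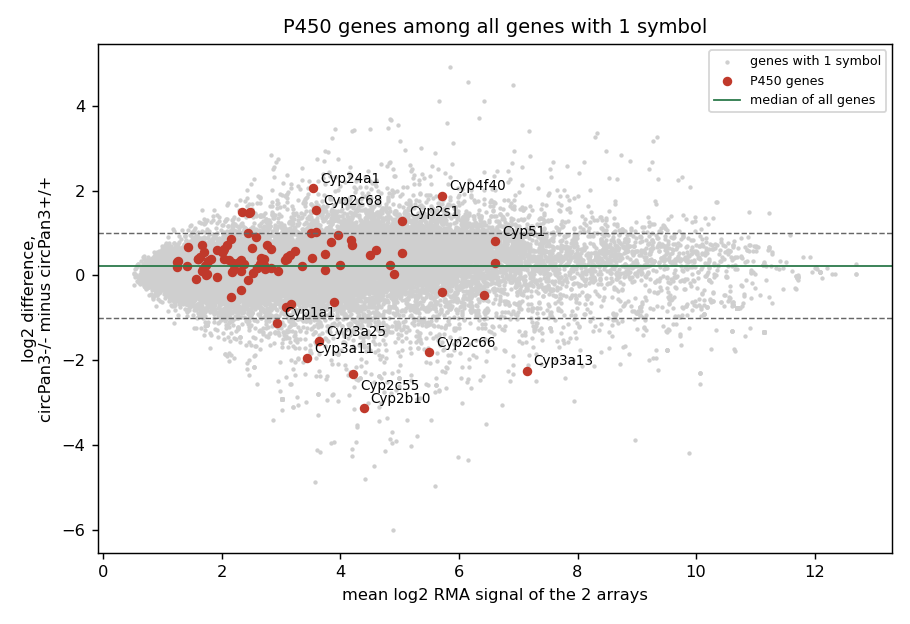
Mean log2 signal of both arrays against the log2 difference (circPan3-/- minus circPan3+/+) for all genes with 1 symbol (grey) and the 95 P450 genes (red). The dashed lines mark 2-fold and the green line the median of all genes, 0.21. Cyp3a13 (lower) and Cyp4f40 (higher) are the members that stay at least 2-fold apart when values under the limits are replaced by the limits.

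Drug and xenobiotic metabolism, families Cyp1, Cyp3 and most of Cyp2, was the largest group, with 48 genes. By 2-fold or more, 5 (10.4%) were higher and 7 (14.6%) lower, against 5.98% and 2.74% of all genes with 1 symbol, and 36 were neither. The group median was 0.29, and 42 of the 48 lay under both limits. The Cyp3a genes were mostly lower. Cyp3a13, a Cyp3a enzyme of mouse small intestine, had a signal of 6.01 in circPan3-/- cells and 8.26 in circPan3+/+ cells. Both values were above the limits, and the gap of -2.25 is 4.76-fold lower. Cyp3a11, the classical target of the xenobiotic receptor PXR in mouse liver and intestine, had 2.46 in circPan3-/- cells and 4.41 in circPan3+/+ cells, a difference of -1.95. Cyp3a25 had 2.86 in circPan3-/- cells and 4.41 in circPan3+/+ cells, a difference of -1.55. Both of these genes lay under the limits on both arrays, so no fold is given. Of the 7 Cyp3a genes, 6 had a difference below 0 and 3 were at least 2-fold lower, with a subfamily median of -0.68. Cyp3a16 was the exception, at 0.58, between values under the limits. The Cyp3a genes are close relatives on chromosome 5, and probes may be shared between them.

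Cyp2b10, the classical target of the receptor CAR, had the lowest difference of all members as deposited. Its signal was 2.82 in circPan3-/- cells, under the limit, and 5.96 in circPan3+/+ cells, above the limit. The difference was -3.13, or at least 1.32-fold lower. The other 4 Cyp2b genes ran from 0.02 to 0.90 and lay under both limits.

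The Cyp2c genes that were 2-fold apart lay in a pair of runs along the gene array on chromosome 19. At one end stand Cyp2c55, Cyp2c65 and Cyp2c66, enzymes of the intestine that hydroxylate or epoxidise arachidonic acid. Cyp2c66 had 4.60 in circPan3-/- cells and 6.41 in circPan3+/+ cells, which differ by -1.81, or at least 1.81-fold lower. Cyp2c55, a gene known to respond to CAR and PXR, had 3.05 in circPan3-/- cells and 5.38 in circPan3+/+ cells, a difference of -2.33. Its circPan3+/+ value was above that array's limit but did not reach the limit of the other array, so no fold is given. Cyp2c65, which lies between those genes, differed least of the 3, with 6.18 in circPan3-/- cells and 6.66 in circPan3+/+ cells, both above the limits and 1.39-fold lower.

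Further along the array, 4 consecutive members, Cyp2c67, Cyp2c68, Cyp2c40 and Cyp2c69, were higher in circPan3-/- cells by nearly the same amount. Cyp2c68 had 4.35 in circPan3-/- cells and 2.82 in circPan3+/+ cells, a difference of 1.54. Cyp2c67 had 3.19 in circPan3-/- cells and 1.72 in circPan3+/+ cells, a difference of 1.47. Cyp2c40 had 3.22 in circPan3-/- cells and 1.72 in circPan3+/+ cells, and Cyp2c69 had 3.08 and 1.59. All 4 lay under the limits on both arrays. The circPan3+/+ value of Cyp2c67 and Cyp2c40 was the same, 1.72, and stood in 1408 rows of the table. These are close relatives that an array may not fully tell apart, so the 4 values may not be independent readings. Their transcripts and probes were not compared, and Cyp2c68 was brighter than the others on both arrays. The remaining 7 Cyp2c genes ran from 0.15 to 0.62.

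The stretches upstream of these genes show both relations, the closeness within the set of 4 and that between Cyp2c65 and Cyp2c66. Sequences are from RefSeq (GRCm38.p6), which gave a window of 250 bases before to 50 bases after the annotated start for 68 of the 95 members. Stretches of 109 bases were taken around CAAAGTCCA, a form of the sequence bound by the intestinal and hepatic nuclear receptor HNF4A, printed in capitals. Strands are those of the genes. Cyp2c66 does not hold these letters in its window, and the stretch shown is the one that best matches Cyp2c65 without gaps. The Cyp3a11 stretch is shown because that gene, from another subfamily, holds the same letters. Its difference has the opposite sign to those of the set of 4 and the same sign as that of Cyp2c65.
Cyp2c67, chr19:39649109-39649217, minus strand: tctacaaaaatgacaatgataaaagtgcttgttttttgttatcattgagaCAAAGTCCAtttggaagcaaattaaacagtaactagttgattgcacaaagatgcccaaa
Cyp2c68, chr19:39741120-39741228, minus strand: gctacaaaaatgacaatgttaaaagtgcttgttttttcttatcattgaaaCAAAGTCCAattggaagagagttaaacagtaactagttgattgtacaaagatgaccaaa
Cyp2c40, chr19:39812801-39812909, minus strand: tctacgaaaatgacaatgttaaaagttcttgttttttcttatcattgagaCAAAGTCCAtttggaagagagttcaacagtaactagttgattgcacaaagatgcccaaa
Cyp2c69, chr19:39886786-39886894, minus strand: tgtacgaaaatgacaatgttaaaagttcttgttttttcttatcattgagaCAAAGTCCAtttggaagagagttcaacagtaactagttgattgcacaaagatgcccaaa
Cyp2c65, chr19:39060840-39060948, plus strand: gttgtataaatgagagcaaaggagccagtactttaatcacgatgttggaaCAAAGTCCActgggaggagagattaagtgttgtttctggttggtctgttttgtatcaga
Cyp2c66, chr19:39113744-39113852, plus strand: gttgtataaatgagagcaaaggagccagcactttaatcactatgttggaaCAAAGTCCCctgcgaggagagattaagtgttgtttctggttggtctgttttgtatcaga
Cyp3a11, chr5:145879905-145880013, minus strand: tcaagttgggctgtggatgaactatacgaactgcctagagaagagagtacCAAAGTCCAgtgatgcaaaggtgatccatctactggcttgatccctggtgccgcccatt

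Within the set of 4, any pair shared between 99 and 108 of the 109 bases. The pair with 108 was Cyp2c40 and Cyp2c69. The Cyp2c65 and Cyp2c66 stretches shared 105 bases. Their capitals differed by A9C, counted from 1 at the 5′ end of the letters CAAAGTCCA, with the Cyp2c65 base first. Cyp3a11 shared 39 bases with Cyp2c67, 37 with Cyp2c68, 38 with Cyp2c40 and 37 with Cyp2c69. Searched on both strands, CAAAGTCCA stood in 0.475% of 32851 promoter windows of all genes. It stood in those of 9 of 68 members: the set of 4, Cyp2c65, Cyp2c70, Cyp3a11, Cyp3a16 and Cyp8b1. The 9 members went both ways, from Cyp3a11 at -1.95 to Cyp2c68 at 1.54. In Cyp2c68 the letters share 3 bases with CCAAT, a promoter element that stood in 37.4% of all windows. Of the 68 members, 34 held CCAAT. Other letters searched were AGGTCA, in 17 of the 68 (16.3% of all windows), and AGTTCA, in 11 (14%). GCGTG stood in 16 (32.4%) and TATAAA in 27 (13.6%). These matches are a description of the sequence only.

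**Figure D3:**
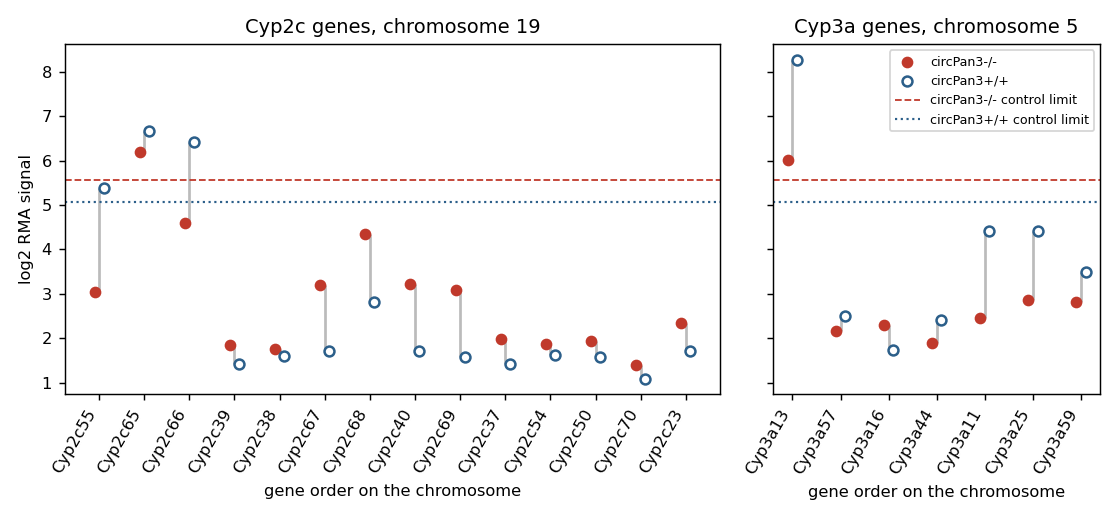
Log2 signal of the Cyp2c genes of chromosome 19 and the Cyp3a genes of chromosome 5, in gene order, on the circPan3-/- array (filled) and the circPan3+/+ array (open), with the control limits as dashed and dotted lines. Lower values in circPan3-/- cells stand at the left end of the Cyp2c array and in 6 of the 7 Cyp3a genes, and the 4 higher Cyp2c genes lie side by side under the limits.

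The 3 members of family Cyp1, whose genes respond to the aryl hydrocarbon receptor Ahr, were under the limits on both arrays. Cyp1a1 had 2.37 in circPan3-/- cells and 3.49 in circPan3+/+ cells, a difference of -1.12, and its circPan3+/+ value stood in 639 rows. Cyp1b1 was at -0.74 and Cyp1a2 at 0.63. Cyp2s1, an epithelial enzyme found mostly outside the liver, was the one drug-type gene above a limit that was higher in circPan3-/- cells. It had 5.68 in circPan3-/- cells and 4.41 in circPan3+/+ cells, which differ by 1.28, or at least 1.54-fold. After scaling by loess or quantiles it was at 0.85 and 0.94, within 2-fold. The 9 Cyp2d genes were all within 2-fold, from 0.03 for Cyp2d26 to 0.99 for Cyp2d10 as deposited, and from -0.18 to 0.78 after centring. Cyp2e1, an ethanol-oxidising enzyme, was at 0.99 and Cyp2w1 at 0.83, both between values under the limits.

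Fatty acid and eicosanoid enzymes, Cyp2j, Cyp2u and Cyp4, numbered 27 genes, with a median of 0.38. By 2-fold or more, 2 (7.41%) were higher and 0 lower, against 5.98% and 2.74% of all genes with 1 symbol. Cyp4f40 had 6.65 in circPan3-/- cells and 4.77 in circPan3+/+ cells. The difference of 1.88, at least 3.01-fold, was the largest among the higher P450 genes with a value above a limit. Its relative Cyp4f14, which hydroxylates leukotrienes and forms of vitamin E, was nearly level, with 6.74 in circPan3-/- cells and 6.46 in circPan3+/+ cells, both above the limits and 1.22-fold apart, and its difference of 0.29 was -0.15 after loess. Cyp4f18, known from mouse neutrophils, was at -0.63 with both values under the limits. The other 7 Cyp4f genes ran from 0.09 to 0.60. Cyp2j6, an arachidonate epoxygenase, had 5.51 in circPan3-/- cells and 5.90 in circPan3+/+ cells, a difference of -0.39. The other 7 Cyp2j genes lay between 0.19 and 0.71, under both limits. Cyp2u1, a hydroxylase of long-chain fatty acids, stood just past 2-fold at 1.01 between values under the limits, and was within 2-fold after each scaling, at 0.80 after centring. None of the 6 Cyp4a genes, targets of the fatty acid receptor PPAR alpha, was 2-fold apart, and their range was -0.09 to 0.61.

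Sterol, bile acid and steroid enzymes made up 13 genes, and 0 of them were 2-fold apart. Of all genes with 1 symbol, 5.98% were higher and 2.74% lower by 2-fold or more, so few would be looked for among 13. All 13 were above 0 as deposited, from 0.17 for Cyp11b2 to 0.95 for Cyp39a1, with a median of 0.42, and after centring 12 of the 13 were, with Cyp11b2 at -0.05. The 12 other than Cyp51 lay under both limits, and the circPan3+/+ value of each also stood in other rows. Of the 64 members with such a shared value, 60 were above 0, against 18 of the 31 other members. The split uses the circPan3+/+ value, which is also subtracted in the difference, so these counts are not independent of it. The median circPan3+/+ value was 2.13 for the 64 and 3.50 for the 31. Among all 30145 genes with 1 symbol, not split in this way, 20863 were above 0. Cyp51, the lanosterol demethylase of cholesterol synthesis, was the only one of the 13 above the limits. It had 7.02 in circPan3-/- cells and 6.20 in circPan3+/+ cells, a gap of 0.81, or 1.76-fold, which was 0.60 after centring and 0.38 after loess. The sterol hydroxylase gene Cyp27a1 had 4.55 in circPan3-/- cells and 3.84 in circPan3+/+ cells, under both limits. Cyp7a1, the rate-limiting enzyme of bile acid synthesis in liver, was among the dimmest members, with 1.53 in circPan3-/- cells and 1.30 in circPan3+/+ cells. The oxysterol hydroxylase Cyp7b1 was at 0.66, Cyp8b1 at 0.48, the brain cholesterol hydroxylase Cyp46a1 at 0.44 and the side-chain cleavage enzyme Cyp11a1 at 0.42, between values under the limits.

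Enzymes of vitamins A and D were 6 genes, all under the limits on both arrays. Cyp24a1, which breaks down active vitamin D and is a target of the vitamin D receptor, had the highest difference of all P450 genes as deposited. Its signal was 4.56 in circPan3-/- cells and 2.51 in circPan3+/+ cells, a difference of 2.05. The circPan3+/+ value is the median of that array and stood in 1579 rows, so it is not a reading particular to the gene. The other 5 ran from 0.04 for the vitamin D hydroxylase Cyp2r1 to 0.26 for Cyp26a1, an enzyme that breaks down retinoic acid. Its relative Cyp26b1 was at 0.12, and Cyp27b1, which makes active vitamin D, at 0.11. Cyp20a1, a P450 with no settled substrate, had 5.30 in circPan3-/- cells and 4.76 in circPan3+/+ cells, a difference of 0.54.

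**Figure D4:**
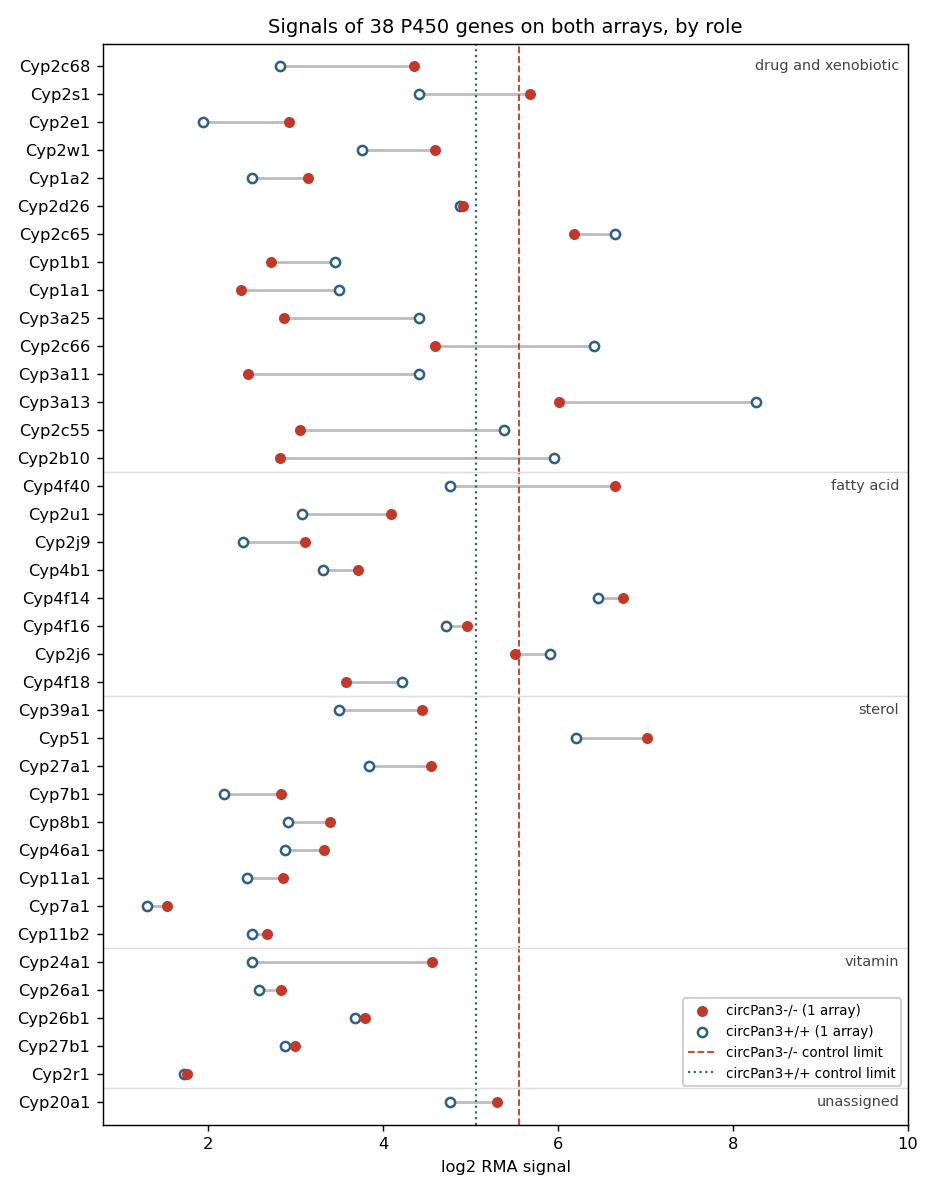
Log2 signal of the 38 P450 genes named by the selection rule, on the circPan3-/- array (filled) and the circPan3+/+ array (open), by role and from the highest to the lowest difference within a role. The dashed and dotted lines are the control limits, 5.56 and 5.06. Among genes with a value past a limit, Cyp2b10, Cyp2c55, Cyp3a13 and Cyp2c66 are shifted to the left in circPan3-/- cells, and Cyp4f40 and Cyp2s1 to the right.

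Genes that act with P450 enzymes were read from fixed lists. Of 18 measured ligand-activated regulators and their targets, 4 were higher by 2-fold or more (3 after each scaling) and 1 lower, with a median of 0.50. These are 22.2% and 5.56% of the list, against 5.98% and 2.74% of all genes with 1 symbol. With bounds, 3 were higher and 0 lower, against 2.04% and 0.826% of all genes. The vitamin D receptor gene Vdr had 7.38 in circPan3-/- cells and 5.65 in circPan3+/+ cells, both above the limits, a difference of 1.73. Nr5a2, a nuclear receptor of steroid and bile acid genes, had 6.09 in circPan3-/- cells and 3.75 in circPan3+/+ cells, under the limit, or at least 2.04-fold higher. The genes of the drug-sensing receptors were within 2-fold. Nr1i2, which encodes PXR, was at 0.85 and Nr1i3, which encodes CAR, at 0.48, all values under the limits, and Hnf4a was at 0.73 with both values above them. Ahr was at 0.48, while its targets went both ways. Tiparp had 6.10 in circPan3-/- cells and 4.60 in circPan3+/+ cells, or at least 2.06-fold higher. Nqo1 had 4.65 in circPan3-/- cells and 6.01 in circPan3+/+ cells, or at least 1.37-fold lower. Srebf2, the activator of cholesterol synthesis genes, was at 0.53. Among 4 measured genes of P450 partner proteins, Pgrmc1, Cyb5b and Cyb5r3 were above both limits and between 0.07 and 0.34. The mitochondrial ferredoxin gene Fdx1 was at 1.03 (0.82 after centring) between values under the limits. The reductase gene Por had no row with 1 symbol here. Of 7 haem synthesis genes, Alas1, the rate-limiting enzyme, was at -0.16 with both values above the limits. Cpox was at 1.05 (0.84 after centring) between values under the limits.

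Enterocytes are the cells where intestinal drug-metabolising P450 enzymes are most abundant. Of 12 measured enterocyte markers, 5 (41.7%) were at least 2-fold lower and 0 higher in circPan3-/- cells, with a median of -0.65. Among all genes with 1 symbol, 2.74% were lower and 5.98% higher by as much. The summed linear signal of the 12 was 2821 in circPan3-/- cells and 4398 in circPan3+/+ cells. Fabp1 had 5.23 in circPan3-/- cells and 7.59 in circPan3+/+ cells, and Apoa4 6.05 and 8.55, while Sis was at 0.03 and Vil1 at 0.32. Lct lay under the limits on both arrays. The median of the 7 myeloid markers was -2.51, with summed signals of 1552 in circPan3-/- cells and 1952 in circPan3+/+ cells. Lyz2, at 10.51 and 10.55, carried most of these sums. The other 6 summed to 92.3 in circPan3-/- cells and 457 in circPan3+/+ cells, and each was lower by 2-fold or more. The 5 measured Paneth and 6 measured goblet cell markers were all higher by 2-fold or more (5 of 6 for goblet cells after centring), with summed signals of 6291 and 4753 in circPan3-/- cells, against 1591 and 1085 in circPan3+/+ cells. Medians of the other lists were -1.29 for 4 endothelial, -0.36 for 5 mesenchymal and -0.24 for 5 T cell markers. They were 1.24 for 6 enteroendocrine and 1.36 for 5 tuft markers, and all tuft markers lay under both limits. The part of these cell types in the P450 differences was not tested.

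**Figure D5:**
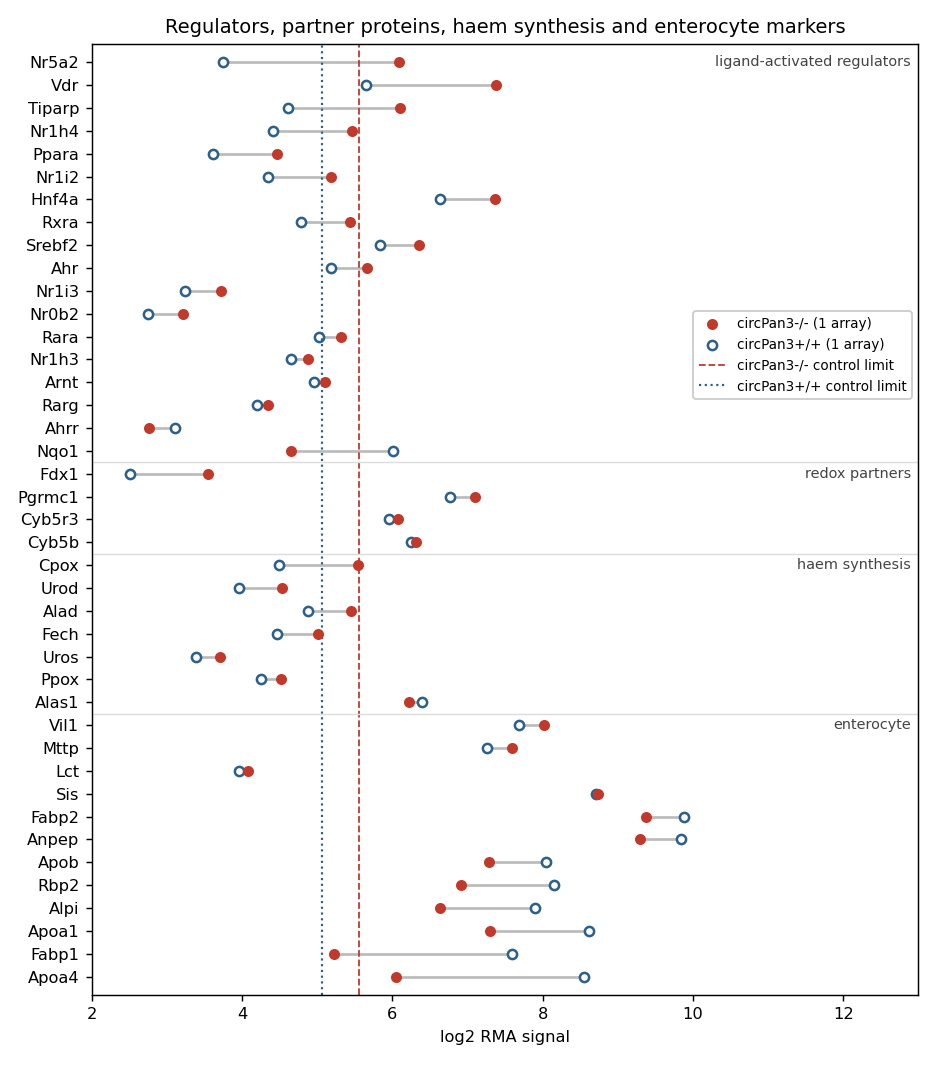
Log2 signal of ligand-activated regulators, partner proteins (labelled redox partners), haem synthesis genes and enterocyte markers on the circPan3-/- array (filled) and the circPan3+/+ array (open), with control limits as dashed and dotted lines. Vdr lies to the right in circPan3-/- cells with both values above the limits, and Apoa4 and Fabp1 show the widest shifts to the left among the enterocyte markers.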

How the data were processed

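The authors' deposited table holds log2 RMA signals for 72688 rows on 2 arrays; per the submitters' processing notes it was made with Affymetrix Power Tools and RMA, for which the sources used here name no version or genome build. The log2 base was taken from the values, -0.18 to 13.07. Arrays give no read depth, and their number limits the precision. The platform annotation gave 30604 rows 1 distinct symbol and 2146 rows several, which were not named. RefSeq (GRCm38.p6) gave biotypes, gene order and promoters.

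The members and gene lists were chosen with earlier results of these data known. Named are members at least 2-fold apart with the brighter value above its limit, the 10 with the highest mean signal, the highest and lowest of each role and a fixed list; Cyp2c67, Cyp2c40, Cyp2c69, Cyp2c70, Cyp2d10, Cyp3a16 and the sequence motif were picked after their values were seen. Python 3.11.15, pandas 2.3.3 and statsmodels 0.14.6 (loess span 0.3) were used, and the functions were tested on simulated arrays. Alternatives were 3 scalings, filters on low signal, other limits, a 1.5-fold threshold, row means and current symbols.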

Additional observations from a re-analysis of the deposited data

How the results depend on the processing

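No paired analysis was possible because each genotype has 1 array and the labels give no replicate number. A median was taken as moved past 1.5-fold and a count past 1.5 times. After centring on all genes, loess or quantile normalization, 7, 6 and 6 members were at least 2-fold higher and 7 lower in each, while the count lower with bounds became 2 (Cyp3a13 and Cyp2c66) in each. The median of the vitamin group turned to -0.03, -0.06 and -0.07. Keeping 51 members whose mean reached the median over all rows left 5 higher and 41 under both limits. Keeping 17 above the upper quartile left 2 higher, 4 lower, 7 under both limits and a drug group median of -1.14. This filter is on the mean of both arrays, so that median partly follows from it. Cyp2b10 and Cyp2c55 passed through their circPan3+/+ values, 5.96 and 5.38, with 2.82 and 3.05 in circPan3-/- cells. A 1.5-fold threshold gave 26 higher and 10 lower, or 3 and 2 with bounds, against 20.6% and 6.53% of all genes, or 7.01% and 1.9% with bounds. Limits at the 90th percentile gave 2 higher and 3 lower with bounds, and at the 99th percentile 0 and 0, with 94 members under both. Chosen after seeing the data, the 31 members with an unshared circPan3+/+ value held 5 higher ones and a drug group median of -0.47. That choice rests on a value that also enters the difference. Shares of all genes were not computed for the filtered sets or for the other limits, so those counts cannot be set against them. Fewer members stand behind the filtered counts. For the others the cause was not tested. None of 190 differences of named genes recomputed under 5 alternatives (the scalings, row means and current symbols) moved past 1.5-fold. Many of them could not: centring takes the same 0.21 off every gene, and row means can change only Cyp11a1. Current symbols left every named difference unchanged. Cyp2u1 fell within 2-fold after each scaling, and Cyp2s1 after loess and quantile normalization.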

Other observations

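Rows that name a P450 together with another symbol were kept out of the counts. There were 10, all with signals under the limits on both arrays. The row of Cyp2c29 and Cyp2c53-ps had 1.91 in circPan3-/- cells and 3.04 in circPan3+/+ cells, a difference of -1.13. The row shared by Cyp4v3 and the kallikrein gene Klkb1 had 3.50 in circPan3-/- cells and 3.24 in circPan3+/+ cells, and the row of Cyp4a10 and Cyp4a31 had 2.51 and 1.72. Of the P450 genes whose symbols do not begin with Cyp, the thromboxane synthase gene Tbxas1 had 2.86 in circPan3-/- cells and 4.13 in circPan3+/+ cells, a difference of -1.26, and the prostacyclin synthase gene Ptgis was at -0.15, all under the limits. The epoxide hydrolase genes Ephx1 and Ephx2, which act on products of P450 enzymes, were at -0.38 and 0.72. Among neighbours of the vitamin enzymes, the retinaldehyde dehydrogenase gene Aldh1a1 had 4.96 in circPan3-/- cells and 6.35 in circPan3+/+ cells, at least 1.74-fold lower, and Rdh7 was at 1.72 between values under the limits. The calcium channel gene Trpv6 and the calcium-binding protein gene S100g were at 0.42 and 0.12.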
